A study of Mus musculus with 24 samples.

Results

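Mouse cells that carried Flk1 on their surface were compared with cells that lacked it, both isolated from embryoid bodies 84 h after the start of differentiation. The comparison took the 4 arrays labelled Flk+ 84hr and the 4 labelled Flk- 84hr, 8 of the 24 arrays of the series, over all probes. Embryoid bodies are aggregates of embryonic stem cells that differentiate without the layout of an embryo. The remaining 16 arrays held the same sorts at 95 h and at 8 d. Each array carried sample RNA in Cy5 against a common reference in Cy3, which was RNA of homogenised mouse pups, and both RNAs had been amplified. The labels give no cell line, genotype or treatment, so the groups differ, as far as the labels say, by the sort alone. Samples carry the numbers 1 to 4, and no label says whether each number was its own culture. A p-value here therefore reflects the scatter among 4 such samples, part or all of which may be technical.

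Flk1 is receptor 2 for vascular endothelial growth factor and is encoded by Kdr. In the gastrulating embryo it appears in mesoderm that leaves the primitive streak, above all in the lateral and extraembryonic mesoderm from which blood vessels, blood and heart arise. Leaving the streak is an epithelial-to-mesenchymal transition, in which cells give up E-cadherin and tight junctions and become motile. Flk1- cells of an embryoid body are not a single type and can include undifferentiated cells, other mesoderm and endoderm. In bulk RNA, fewer cells of a type and less RNA per cell cannot be told apart.

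Values are log ratios of sample over reference, read as log2, with each array's median set to 0. A gene's value says how it compares with whole pups, so values of one gene can be compared between arrays, and values of different genes cannot be ranked as levels. Differences are Flk1+ minus Flk1-, errors after a ± are standard errors from limma over 4 arrays per sort, and a gene is said to be called at a limma p-value, adjusted by Benjamini-Hochberg, under 0.05. A set of 3 arrays stood apart. Flk1+ arrays 2 and 4 had standard deviations of 1.01 and 1.00 over all probes, against 0.807 and 0.851 for Flk1+ arrays 1 and 3 and 0.703 to 0.750 for the 4 Flk1- arrays. Flk1+ arrays 1 and 3 correlated at 0.93 and arrays 2 and 4 at 0.839, but pairs across these sets only at 0.59 to 0.69. Pairs of Flk1- arrays reached 0.877 to 0.966, those with array 4 being the lowest at 0.877 to 0.888. Flk1+ arrays 1 and 3 correlated at 0.858 to 0.888 with Flk1- arrays 1 to 3, more than with Flk1+ arrays 2 and 4. Hprt, a purine salvage enzyme often used as a reference gene, was named after its values were seen. It read 0.13, -3.24, 0.01 and -3.21 on Flk1+ arrays 1 to 4 and 0.79, 0.55, 0.49 and -1.11 on the Flk1- arrays. It was therefore low on Flk1+ arrays 2 and 4 and on Flk1- array 4, and its sorts overlapped (difference -1.76 ± 0.89, adjusted p = 0.282). Results are from all 8 arrays, and values without these 3 are added for the main lists and genes.

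Kdr was higher in the Flk1+ cells, as the sort implies. It read 1.80, 0.04, 1.43 and 0.67 on the Flk1+ arrays and -0.87, -0.74, -1 and -1.08 on the Flk1- arrays. All Flk1+ arrays lay above all Flk1- arrays, with array 2 the lowest of the Flk1+. The difference was 1.91 ± 0.35 (adjusted p = 0.0335) and became 2.49 (adjusted p = 0.00181) without the 3 arrays. The call ended when Flk1+ array 3 or 4 or any 1 Flk1- array was left out, with differences of 1.63 to 2.22 and adjusted p-values up to 0.129.

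Of 17440 features, 8973 named genes and 8467 probes without a single gene name, 347 (1.99%) were called. Of these, 90 (0.516%) were higher and 257 (1.47%) were lower in Flk1+ cells, and 61 of the higher and 183 of the lower had a gene name. For each of the 347 the Flk1+ arrays lay wholly above or below the Flk1- arrays, while 17.4% of all features had such a separation. Called differences ran from -3.56 to 3.39, with a median size of 0.919. Without the 3 arrays 340 of the 347 were called again, 88 higher and 252 lower; their signs could not turn, since the sorts did not overlap. The 7 that were not included Dppa3 and Wbp2, and the others had no gene name. The smaller set of 2 against 3 arrays called 2867 features (16.4%), 1034 higher (5.93%) and 1833 lower (10.5%). Both fits use the same 5 arrays, so the second is not an independent repeat. Leaving out 1 array at a time gave 96 to 556 calls. The count was 556 without Flk1+ array 2, 224 without Flk1+ array 3, and 117, 96, 107 and 164 without Flk1- arrays 1, 2, 3 and 4. Across 17 alternatives, 66 features (20 higher, 46 lower, 55 with a gene name) were called every time.

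**Figure D1:**
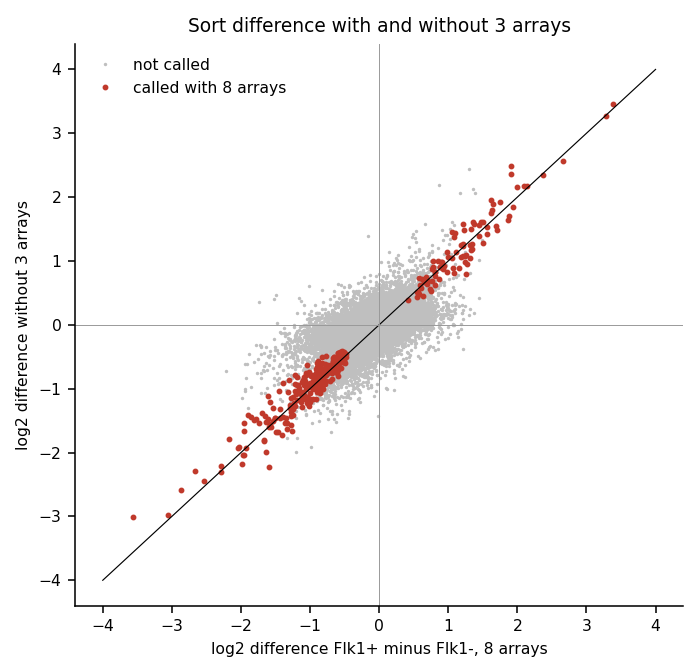
Log2 difference Flk1+ minus Flk1- of each of the 17440 features with all 8 arrays (horizontal) and without Flk1+ arrays 2 and 4 and Flk1- array 4 (vertical); red points are the 347 features called with 8 arrays and the line marks equal values. Of the red points 340 are called in both fits, and many grey points lie far from the line.

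The lists were written with earlier results of these data known. Among them, that of lateral and extraembryonic mesoderm had the most genes called higher in Flk1+ cells. Of 15 measured members of this list 6 were called, all higher, and 9 were not. The median difference was 0.53, against 0.00 over all features, and 0.72 without the 3 arrays. Without them 9 members were called higher and 1 lower, where 5.93% of all features were called higher and 10.5% lower. Prdm6, a PR-domain protein, read 2.78, 3.60, 3.06 and 3.69 on the Flk1+ arrays and -0.08, -0.78, -0.17 and 1.03 on the Flk1- arrays. Every Flk1+ array was far above the highest Flk1- array, which was array 4. The difference of 3.28 ± 0.38 (adjusted p = 0.00493) was 3.27 without the 3 arrays. Tbx3, a T-box transcription factor, read 2.29, 2.13, 2.12 and 2.92 in Flk1+ and -0.05, -0.20, -0.17 and 0.40 in Flk1- samples. The sorts were again apart, with array 4 the highest of each, and the difference was 2.37 ± 0.21 (adjusted p = 0.00229). Gata3, a zinc-finger transcription factor, read 0.03, -0.70, -0.37 and 0.37 against -1.99, -2.67, -2.32 and -1.69. It was thus near the level of whole pups in Flk1+ cells and below it in Flk1- cells (difference 2.00 ± 0.28, adjusted p = 0.0110).

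Hand1, a basic helix-loop-helix factor required in extraembryonic and lateral mesoderm, read 1.73, 2.40, 2.06 and 2.86 in Flk1+ and 0.53, 0.43, 0.28 and 0.98 in Flk1- samples (difference 1.71 ± 0.25, adjusted p = 0.0146). Both sorts were above the reference and did not overlap. Msx2, a homeobox gene induced by BMP signals, differed by 1.35 ± 0.16 (adjusted p = 0.00574), from a mean of 0.31 in Flk1- to 1.66 in Flk1+ cells. Bmp4, the ligand that patterns this mesoderm, differed by 1.24 ± 0.17 (adjusted p = 0.0106) and by 0.98 without the 3 arrays. Prdm6, Tbx3 and Msx2 were called under all 17 alternatives. The call of Gata3 ended without Flk1- array 3 (adjusted p = 0.0531), that of Bmp4 without Flk1- array 2 or 3 (up to 0.0527) and that of Hand1 without Flk1- array 1, 2 or 3 (up to 0.0710).

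Streak and nascent mesoderm genes were measured less fully, with 9 members, of which 1 was called higher and 8 were not called; their median difference was 0.40. Mesp1, which marks mesoderm leaving the streak, was high in both sorts at 3.76, 4.67, 3.85 and 4.70 in Flk1+ and 3.09, 1.89, 2.44 and 3.59 in Flk1- samples. The sorts did not overlap, but the difference of 1.49 ± 0.39 missed the threshold (adjusted p = 0.0985). Eomes, a T-box factor of streak and endoderm, overlapped between the sorts (difference 0.48 ± 0.18, adjusted p = 0.205). Hoxb1, a 3' Hox gene active early in the streak, read 1.28, 1.36, 1.48 and 2.08 against -0.31, -0.22, -0.24 and -0.49. It separated the sorts with a difference of 1.87 ± 0.18 (adjusted p = 0.0026) under all 17 alternatives. Pbx3, a Hox cofactor, differed by 1.09 ± 0.16 (adjusted p = 0.0125), a call that ended without Flk1- array 1, 2 or 3 (up to 0.0662). These were the 2 called of 15 measured Hox, Cdx and cofactor genes, both higher. None of 3 measured paraxial mesoderm genes was called.

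**Figure D2:**
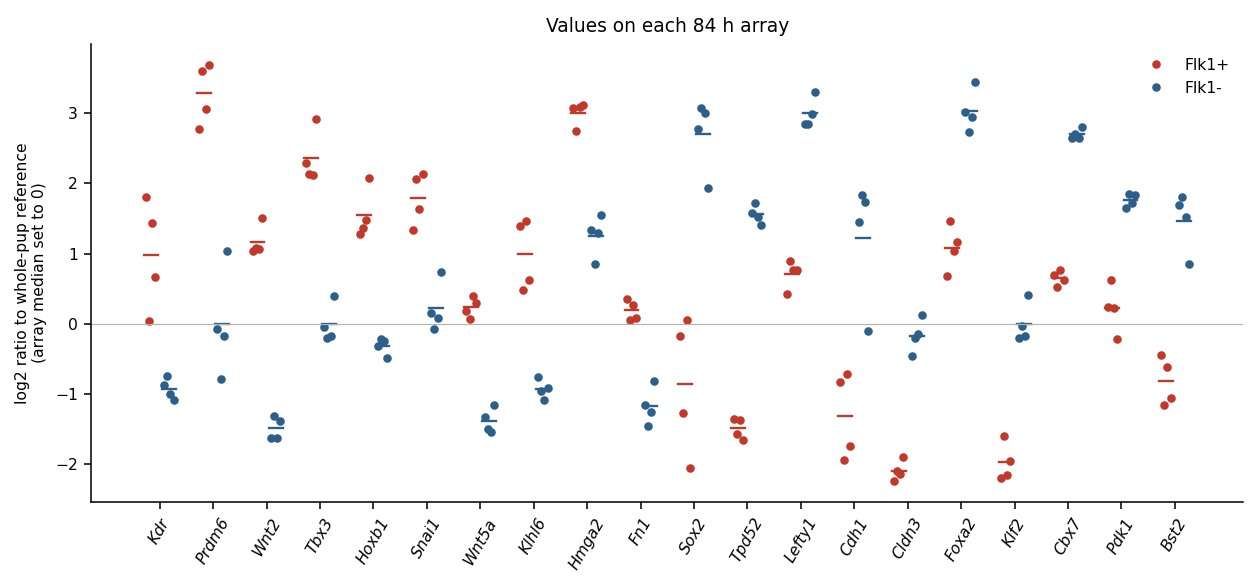
Log2 ratio to the whole-pup reference on each of the 8 arrays for 20 genes; each dot is 1 array, red for Flk1+ and blue for Flk1-, arrays 1 to 4 from left to right, and bars are means of 4. Prdm6 reaches 2.78 to 3.69 in Flk1+ and at most 1.03 in Flk1- samples, while Kdr, Sox2 and Cdh1 spread widely among the Flk1+ arrays.

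Genes of the mesenchymal state were higher in part. Of 17 measured transition factors and mesenchymal genes, 5 were called higher, 0 lower and 12 were not called, with a median of 0.44 and 0.50 without the 3 arrays. Snai1, the zinc-finger repressor of E-cadherin, read 1.33, 2.06, 1.64 and 2.14 in Flk1+ and 0.16, -0.07, 0.08 and 0.74 in Flk1- samples. All Flk1+ arrays were above the Flk1- arrays, of which array 4 was highest, and the difference was 1.56 ± 0.23 (adjusted p = 0.0144). Fn1, which encodes fibronectin, read 0.36, 0.05, 0.27 and 0.08 against -1.16, -1.46, -1.26 and -0.82. Its Flk1+ values sat closely together, and the difference was 1.36 ± 0.15 (adjusted p = 0.00424). Cdh2, N-cadherin, differed by 0.98 ± 0.14 (adjusted p = 0.0127) and Tgfb2, a transforming growth factor, by 0.78 ± 0.12 (adjusted p = 0.0181). Mmp14, a membrane-bound matrix protease, differed by 1.32 ± 0.27 (adjusted p = 0.0493). Fn1 was called under all 17 alternatives. The calls of Snai1, Cdh2 and Tgfb2 ended without Flk1- array 1, 2 or 3 (adjusted p up to 0.0673, 0.0654 and 0.0910), and that of Mmp14 ended without any 1 of the 8 arrays (up to 0.172).

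Epithelial genes moved the other way and made up the largest called list. Of 27 measured junction, polarity and keratin genes 11 were called, all lower in Flk1+ cells, and 16 were not called. The median difference was -0.80, or -0.51 without the 3 arrays, where 14 were called lower and 1 higher. That fit called 10.5% of all features lower and 5.93% higher. Cdh1, E-cadherin, read -0.83, -1.94, -0.72 and -1.74 in Flk1+ and 1.45, 1.83, 1.73 and -0.10 in Flk1- samples. Flk1- array 4 lay nearest to the Flk1+ arrays without overlapping them, and the difference was -2.54 ± 0.47 (adjusted p = 0.0351; -2.44 and 0.00181 without the 3 arrays). Cldn3, a tight-junction claudin, read -2.24, -2.10, -2.14 and -1.90 against -0.46, -0.20, -0.14 and 0.12. Its values were close together within each sort, and the difference was -1.92 ± 0.14 (adjusted p = 0.00106).

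Epcam, an epithelial adhesion protein, read -1.11, -2.31, -1.13 and -2.68 in Flk1+ and 0.85, 0.69, 0.47 and -0.55 in Flk1- samples (difference -2.17 ± 0.44, adjusted p = 0.0488). The arrays that stood apart were the lowest of each sort. St14, the membrane protease matriptase, fell by 1.66 ± 0.15 on the log2 scale (adjusted p = 0.00231), and its inhibitor Spint2 differed by -1.58 ± 0.19 (adjusted p = 0.0067). Crb3, a Crumbs polarity protein, read -0.98, -0.38, -0.89 and -0.19 against 0.66, 0.72, 0.87 and 1.26 (difference -1.49 ± 0.21, adjusted p = 0.0125). Its sorts did not overlap, and the arrays that stood apart were the highest of each sort, the reverse of Epcam. Further called members, named after their values were seen, were Ocln, the tight-junction protein occludin, at -1.22 ± 0.12, Cdh3, P-cadherin, at -1.05 ± 0.10, Cgn, the junction protein cingulin, at -1 ± 0.15 and Krt7, a keratin, at -0.83 ± 0.16, with adjusted p-values from 0.00248 to 0.0464. Spint1, the other matriptase inhibitor, differed by -1.22 ± 0.22 (adjusted p = 0.0297) and by -0.79 without the 3 arrays. Cldn3, St14, Spint2, Ocln and Cdh3 were called under all 17 alternatives. The calls of Cdh1 and Epcam ended without any 1 of 7 arrays, all but Flk1- array 4 (adjusted p up to 0.134 and 0.172). Crb3 was lost without Flk1- array 2 or 3 (up to 0.0588), Cgn without Flk1- array 1, 2 or 3 (up to 0.0711), Spint1 without Flk1+ array 4 or any 1 Flk1- array (up to 0.122) and Krt7 without any 1 array but Flk1+ array 2 (up to 0.152).

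A pair of transcription factors of epithelial cells, Ovol2 and Grhl1, was picked after values were seen and stands for no list. Ovol2, a zinc-finger factor, read -0.33, 0.04, -0.07 and -0.01 in Flk1+ and 1.34, 1.34, 1.5 and 1.72 in Flk1- samples. The sorts were well apart on all arrays (difference -1.57 ± 0.13, adjusted p = 0.00156). Grhl1, a grainyhead factor, differed by -1.51 ± 0.16 (adjusted p = 0.00332), from -1.90 in Flk1- to -3.41 in Flk1+ cells, and by -0.49 when arrays were scaled to a common spread, where it was not called.

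Promoters of the called epithelial genes are shown because Snai1 and related repressors bind the E-box CAGGTG, and Snai1 and the epithelial genes differed in opposite directions. The motif was searched on both strands in the 250 bases before the RefSeq start of each gene, build GRCm38.p6. CAGGTG and CACCTG are each other's reverse complement, so either counts as the motif. Of the 11 called epithelial genes 8 had a promoter entry, and 5 of these (62.5%) held the motif, namely Epcam, Ocln, Crb3, Krt7 and Spint2. Among the 16 members that were not called, 11 had an entry and 9 (81.8%) held it. Over all genes with an entry, 5252 of 27025 (19.4%) held it, and over all windows, of which a gene can have several, 5657 of 32851 (17.2%). The share was thus no lower among epithelial genes that were not called than among those that were. A match is a stretch of letters, not a measured binding site. The upstream windows of 3 called genes, written in the direction of transcription with the motif in capitals, are:
Crb3 (chr17:57061951-57062200, plus strand): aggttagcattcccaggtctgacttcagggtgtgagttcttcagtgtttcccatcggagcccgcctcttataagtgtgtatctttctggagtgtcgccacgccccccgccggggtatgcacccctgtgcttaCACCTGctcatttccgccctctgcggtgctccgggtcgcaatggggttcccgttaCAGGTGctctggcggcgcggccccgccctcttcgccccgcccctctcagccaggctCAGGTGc
Epcam (chr17:87635729-87635978, plus strand): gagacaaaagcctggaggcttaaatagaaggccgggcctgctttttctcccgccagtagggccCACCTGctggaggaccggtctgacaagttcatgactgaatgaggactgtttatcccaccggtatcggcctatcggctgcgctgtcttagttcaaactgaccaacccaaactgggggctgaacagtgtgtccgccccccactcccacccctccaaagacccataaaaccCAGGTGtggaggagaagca
Spint2 (chr7:29281978-29282227, minus strand): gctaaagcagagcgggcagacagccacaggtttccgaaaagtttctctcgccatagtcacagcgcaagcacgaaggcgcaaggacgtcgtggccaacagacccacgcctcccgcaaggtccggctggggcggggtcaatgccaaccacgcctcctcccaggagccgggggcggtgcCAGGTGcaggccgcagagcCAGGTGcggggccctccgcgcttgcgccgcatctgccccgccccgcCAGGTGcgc

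In Crb3 the first letter of the motif lay 118, 63 and 7 bases before the start, in Epcam 187 and 19 bases, and in Spint2 74, 55 and 9 bases. Each of these windows thus held the motif more than once, but they were picked from the called genes that held it. How often other windows held it more than once was not counted. Crb3 has 2 windows in the table, of which the first is printed.

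Wnt ligands were among the most separated genes. Wnt signalling in endothelial commitment is the subject of the series title. Of 13 measured Wnt ligands and receptors 2 were called, both higher, with 11 not called and a median of 0.19. Wnt2, a ligand of the canonical type, read 1.03, 1.08, 1.07 and 1.5 in Flk1+ and -1.63, -1.31, -1.62 and -1.39 in Flk1- samples. The sorts lay on opposite sides of the reference on every array, and the difference of 2.66 ± 0.14 (adjusted p = 0.000183) was 2.57 without the 3 arrays. Wnt5a, a ligand of the non-canonical type, read 0.18, 0.07, 0.40 and 0.30 against -1.33, -1.5, -1.54 and -1.15. It too was separate on all arrays (difference 1.62 ± 0.13, adjusted p = 0.00119), and both genes were called under all 17 alternatives. Nkd1, a feedback inhibitor inside the pathway, was the 1 called of 18 measured intracellular and target genes (difference 1.06 ± 0.19, adjusted p = 0.0335). Its call ended without Flk1+ array 1 or 3 or any 1 Flk1- array (up to 0.136). Of 5 measured secreted Wnt inhibitors 0 were called; their median was -0.11 and became 0.30 with quantile normalization, so their direction depends on the scaling.

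Other signalling lists had few calls each. Among 17 FGF genes, Fgf10, a mesenchymal ligand, read 2.15, 2.03, 1.23 and 1.15 in Flk1+ and -0.11, -0.22, 0.01 and 0.32 in Flk1- samples. The Flk1+ arrays were all above the Flk1- arrays but fell into higher values on arrays 1 and 2 and lower values on arrays 3 and 4 (difference 1.64 ± 0.25, adjusted p = 0.0171). Fgfr1, a receptor, differed by 0.81 ± 0.16 (adjusted p = 0.0454). Fgf7, a ligand, differed by -0.53 ± 0.10 (adjusted p = 0.0317), but by 0.34 when arrays were scaled to a common spread. Notch1, a receptor, was the 1 called of 18 Notch pathway genes; it read 0.32, 0.89, 0.58 and 0.58 against -0.79, -0.86, -0.79 and -0.06 (difference 1.22 ± 0.20, adjusted p = 0.0245). Flk1- array 4 stood well above the other Flk1- arrays but below all Flk1+ arrays. Bmp4 was the 1 called of 20 BMP genes. The calls of Fgf10 (up to 0.0806) and Notch1 (up to 0.104) ended without Flk1- array 1, 2 or 3, and that of Notch1 also without Flk1+ array 3 or 4. Fgfr1 was lost without any 1 array but Flk1+ array 3 (up to 0.164), and Fgf7 without Flk1+ array 1 or 3 or any 1 Flk1- array (up to 0.144).

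On the Nodal side 2 of 17 measured genes were called, both lower, with a list median of 0.14. Lefty1, a secreted inhibitor of Nodal, read 0.42, 0.89, 0.76 and 0.76 in Flk1+ and 2.85, 2.84, 2.99 and 3.30 in Flk1- samples. The gap between the sorts was many times the spread within them (difference -2.28 ± 0.15, adjusted p = 0.000489). Gdf3, a Nodal-related ligand, differed by -1.24 ± 0.18 (adjusted p = 0.0128), a call that ended without Flk1- array 1 or 2 (up to 0.0594). Pcsk5, a convertase that cleaves secreted precursor proteins, was higher at 0.14, 0.27, 0.08 and 0.58 against -1.87, -1.80, -1.55 and -1.47. Its sorts did not overlap (difference 1.94 ± 0.15, adjusted p = 0.00119). Lefty1 and Pcsk5 were called under all 17 alternatives.

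Pluripotency genes were lower in part, with 5 of 21 measured called, all lower, 16 not called, and a median of -0.34 (-0.32 without the 3 arrays). Sox2 had the largest difference of all named genes: it read -0.18, -1.27, 0.06 and -2.05 in Flk1+ and 2.77, 3.08, 3.00 and 1.94 in Flk1- samples. The arrays that stood apart were lower than the others of their sort, and the difference of -3.56 ± 0.48 (adjusted p = 0.0101) was -3.01 without them. Klf2, a Krüppel-like factor, read -2.19, -1.60, -2.15 and -1.95 against -0.20, -0.03, -0.18 and 0.41 (difference -1.97 ± 0.18, adjusted p = 0.00246). Utf1, a chromatin protein of undifferentiated cells, differed by -1.04 ± 0.14 (adjusted p = 0.0108). Dppa3, a gene of naive and germ cells, read 0.56, -0.09, 0.86 and -0.17 against 3.07, 1.79, 1.88 and 2.25. The sorts did not overlap, but the call (difference -1.96 ± 0.33, adjusted p = 0.0255) ended without the 3 arrays (-1.54, adjusted p = 0.0563), without Flk1+ array 4 and without any 1 Flk1- array (up to 0.0841). Sox2 and Klf2 were called under all 17 alternatives, and Utf1 was lost without Flk1- array 2 (0.0562).

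Other genes of the undifferentiated state were not called. Nanog overlapped between the sorts at 0.31 to 1.21 in Flk1+ and 1.17 to 1.44 in Flk1- samples (difference -0.48 ± 0.20, adjusted p = 0.226). Zfp42, also known as Rex1, read 2.91, 0.97, 3.18 and 1.5 against 3.43, 3.43, 3.38 and 3.77, so the size of its difference (-1.36 ± 0.46, adjusted p = 0.177; -0.37 without the 3 arrays) came mostly from Flk1+ arrays 2 and 4. Among 10 primed epiblast genes, Otx2, a homeobox factor, differed by -0.90 ± 0.18 (adjusted p = 0.0479) and Dnmt3b, a DNA methyltransferase, by -0.60 ± 0.11 (adjusted p = 0.0397). Both were above the reference on every array of both sorts. Their calls ended without any 1 Flk1- array and without Flk1+ array 1 or 2 for Otx2 and 1 or 4 for Dnmt3b (up to 0.172 and 0.149). Cdh2 was the list's 1 member called higher.

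Endoderm genes gave 3 called of 14 measured, all lower, with a median of -0.24. Without the 3 arrays 3 members were called higher and 7 lower, with a median of -0.34. That fit called 5.93% of all features higher and 10.5% lower. Foxa2, a forkhead factor of definitive endoderm and axial mesoderm, read 0.68, 1.46, 1.04 and 1.16 in Flk1+ and 3.02, 2.73, 2.94 and 3.44 in Flk1- samples. Both sorts were above the reference and were clearly apart (difference -1.95 ± 0.20, adjusted p = 0.00337), and the call held under all 17 alternatives. Trh, thyrotropin-releasing hormone, differed by -1.40 ± 0.21 (adjusted p = 0.0145). Sox17, an endoderm factor also found in endothelium, read -0.45, -0.01, -0.34 and -0.14 against 0.33, 0.24, 0.52 and 1.17. Its sorts were separate without a call (difference -0.80 ± 0.21, adjusted p = 0.102), and it was called without the 3 arrays (adjusted p = 0.0120). Cubn, the receptor cubilin of visceral endoderm, differed by -0.94 ± 0.17 (adjusted p = 0.0335). Trh was lost without Flk1- array 2 or 3 (up to 0.0710) and Cubn without any 1 array but Flk1+ array 2 (up to 0.140).

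**Figure D3:**
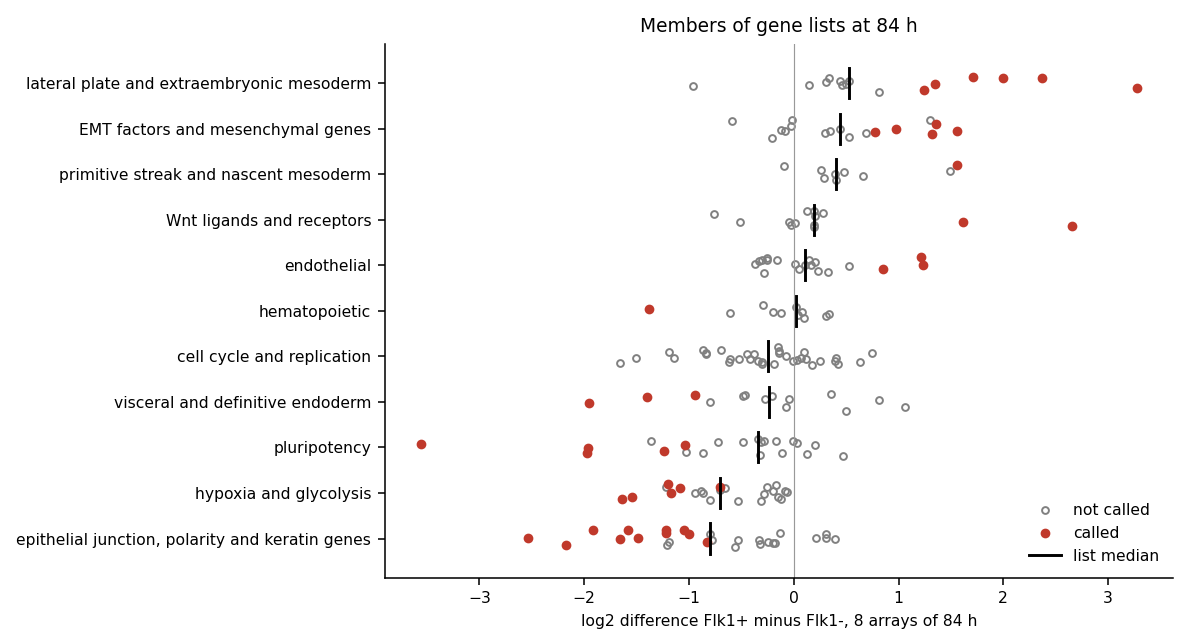
Log2 difference Flk1+ minus Flk1- of each measured member of 11 gene lists, over 8 arrays; filled points were called, open points were not, and black bars are list medians. Calls lie on the right for lateral mesoderm (6 of 15) and on the left for epithelial genes (11 of 27), and all 23 hypoxia and glycolysis genes lie left of 0.

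Endothelial genes gave few calls, and these were receptors and a signalling protein of early vessels. Of 19 measured members 3 were called, all higher, with a median of 0.11. Without the 3 arrays that stood apart, 4 members were called higher and 3 lower, with a median of 0.04. That fit called 5.93% of all features higher and 10.5% lower. Nrp1, a coreceptor for vascular endothelial growth factor and semaphorins, read -1.05, -1, -1.14 and -1.16 in Flk1+ and -2.26, -2.39, -2.33 and -2.19 in Flk1- samples. Its 4 values in each sort were nearly the same, and the difference was 1.21 ± 0.09 (adjusted p = 0.00119). Aplnr, the apelin receptor of early mesoderm and vessels, differed by 1.23 ± 0.18 (adjusted p = 0.0148) and Fgd5, an exchange factor of endothelial cells, by 0.85 ± 0.14 (adjusted p = 0.0242). Cdh5, VE-cadherin, was far below the reference in both sorts at -3.42 to -3.14 and -3.61 to -3.24, with overlap (difference 0.20 ± 0.12, adjusted p = 0.339), although scaling arrays to a common spread made it 1.57 and called (adjusted p = 0.0130). Pecam1, another endothelial surface protein, differed by -0.26 ± 0.11 (adjusted p = 0.246; called at -0.37 with array weights, adjusted p = 0.0295). Klhl6, a Kelch-like protein known from lymphocytes and endothelium, read 1.40, 0.48, 1.46 and 0.62 against -0.76, -0.95, -1.09 and -0.91. It resembled Kdr in being lower on Flk1+ arrays 2 and 4, and its difference of 1.92 ± 0.24 (adjusted p = 0.00716) was 2.36 without the 3 arrays. Nrp1 and Klhl6 were called under all 17 alternatives. The calls of Aplnr and Fgd5 ended without Flk1- array 1, 2 or 3 (up to 0.0687 and 0.103), and that of Fgd5 also without Flk1+ array 1 or 3.

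Blood, heart, muscle and nerve genes were mostly not called. Of 11 hematopoietic genes the 1 called was Kit, the stem cell factor receptor, which read -0.82, -1.56, -0.94 and -1.63 in Flk1+ and 0.07, -0.12, 0.13 and 0.50 in Flk1- samples. It was lower in every Flk1+ sample (difference -1.38 ± 0.22, adjusted p = 0.0200; -0.91 without the 3 arrays). The embryonic globins Hba-x and Hbb-y and the factors Gata1 and Klf1 were among 6 measured blood markers, of which 0 were called. Among 16 cardiac contractile genes Tnni3, a troponin, differed by -0.84 ± 0.10 (adjusted p = 0.0067), but by 0.03 when arrays were scaled to a common spread. Nefl, a neurofilament, was the 1 called of 9 neural genes (-1.27 ± 0.14, adjusted p = 0.00416). Pdgfrb, a receptor of mural cells, and Fbln2, a matrix protein, were the 2 called of 16 smooth muscle and fibroblast genes, at 0.93 ± 0.19 (adjusted p = 0.0476) and 1.25 ± 0.24 (adjusted p = 0.0402). The median of that list was 0.07 and became -0.18 without the 3 arrays, so it had no stable direction. Kit was lost without any 1 Flk1- array (up to 0.0823), Pdgfrb without Flk1+ array 1 or 3 or any 1 Flk1- array (up to 0.172) and Fbln2 without any 1 array but Flk1+ array 3 (up to 0.146). None of 9 trophoblast genes or 7 retinoic acid genes was called.

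Defining markers of other cell types gave the following measured background to these lists. The mean of 5 embryonic stem cell markers was -0.28 to 0.64 on the Flk1+ and 1.07 to 1.37 on the Flk1- arrays, and 1 of the 5 was called lower. The mean of 2 definitive endoderm markers was 0.12 to 0.72 and 1.49 to 2.30, with 1 called lower. For 3 visceral endoderm markers it was near -3 in both sorts, at -3.00 to -2.95 and -2.99 to -2.65, with 1 called lower. The 2 nascent mesoderm markers averaged 2.30 to 2.97 in Flk1+ and 1.00 to 1.98 in Flk1- samples without a call, and the 4 lateral mesoderm markers 1.47 to 2.15 and -0.08 to 0.34, all 4 called higher. The 3 measured neural markers averaged -1.61 to -0.83 in Flk1+ and -0.69 to -0.58 in Flk1- samples, with 1 called lower. Means of the stem cell, definitive endoderm and neural markers were thus lower on every Flk1+ array than on any Flk1- array. Means of the visceral endoderm markers differed little. The medians of all 9 measured neural list genes did overlap between the sorts, at -1.71 to -0.69 in Flk1+ and -0.91 to -0.47 in Flk1- samples. All 5 measured stem cell markers are also members of the pluripotency list. The part of these cell types in the lower pluripotency and epithelial genes was not tested.

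Guidance molecules were called in both directions. Of 24 measured receptors and ligands 3 were higher and 2 lower. Epha4, an ephrin receptor, differed by 0.89 ± 0.12 (adjusted p = 0.0101), and Efnb1, an ephrin, by 0.71 ± 0.10 (adjusted p = 0.0120). Ackr3, a scavenger receptor for Cxcl12, read -0.48, -0.51, -0.59 and 0.50 in Flk1+ and -1.58, -1.74, -1.56 and -1.23 in Flk1- samples. Flk1+ array 4 was far above the other Flk1+ arrays, and the difference was 1.26 ± 0.25 (adjusted p = 0.0460). Cxcl12 itself was lower (-0.81 ± 0.13, adjusted p = 0.0235), but its difference was only -0.18 with arrays scaled to a common spread. Sema6a, a transmembrane semaphorin, read -1.11, -1.68, -1.17 and -1.31 against -0.12, -0.06, -0.09 and 0.25. It was lower in all Flk1+ samples (difference -1.31 ± 0.15, adjusted p = 0.00539) and called under all 17 alternatives. Epha4 was lost without Flk1- array 2 (0.0562), Efnb1 without Flk1- array 1, 2 or 3 (up to 0.0710), Ackr3 without Flk1+ array 1 or 3 or any 1 Flk1- array (up to 0.172) and Cxcl12 without Flk1+ array 3 or any 1 Flk1- array (up to 0.106).

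Genes that respond to low oxygen and genes of glycolysis were all on the lower side. Of 23 measured members 6 were called lower and 17 were not called, all 23 differences were negative, and the median was -0.70 (-0.40 without the 3 arrays). Over all 8973 named genes 5149 differences were negative. Pdk1, a mitochondrial kinase that inhibits pyruvate dehydrogenase, read 0.24, 0.63, 0.23 and -0.21 in Flk1+ and 1.65, 1.85, 1.72 and 1.84 in Flk1- samples. The Flk1- values were tight and all above the Flk1+ values (difference -1.54 ± 0.17, adjusted p = 0.00424). Ddit4, an inhibitor of mTOR signalling, read -0.30, -0.53, -0.05 and 0.13 against 1.55, 1.14, 1.32 and 1.79 (difference -1.64 ± 0.19, adjusted p = 0.00493). It showed the same separation on all 8 arrays. Ero1a, an oxidase of the endoplasmic reticulum, differed by -1.20 ± 0.15, Ndrg1, a stress-responsive gene, by -1.17 ± 0.14, Adm, the peptide adrenomedullin, by -1.09 ± 0.16 and Bhlhe40, a transcriptional repressor named after its value was seen, by -0.70 ± 0.11, with adjusted p-values of 0.007 to 0.0185 for Ero1a, Adm and Bhlhe40 and 0.00574 for Ndrg1. Pdk1, Ddit4, Ero1a and Ndrg1 were called under all 17 alternatives. Adm was lost without any 1 Flk1- array (up to 0.0773) and Bhlhe40 without Flk1+ array 3 or any 1 Flk1- array (up to 0.0925). The core motif of hypoxia-inducible factors, ACGTG (or CACGT), lay in the 250 upstream bases of 2 of 4 called members with a promoter entry (50%), Ddit4 and Ero1a, in 9 of 17 not called (52.9%) and in 4998 of 27025 genes (18.5%).

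Insulin-like growth factor binding proteins differed in opposite directions. Igfbp4 read -1.08, -1.67, -1.28 and -0.87 in Flk1+ and -2.66, -2.70, -3.00 and -2.56 in Flk1- samples (difference 1.5 ± 0.18, adjusted p = 0.0067). Igfbp3 read -2.67, -3.41, -2.64 and -3.28 against -0.87, -1.43, -1.24 and -1.36 (difference -1.78 ± 0.21, adjusted p = 0.00652). Igfbp2 read -1.74, -1.77, -1.54 and -1.82 against -0.44, -0.42, -0.62 and -0.25 (difference -1.28 ± 0.12, adjusted p = 0.00229). The sorts did not overlap for any of them, Igfbp4 being high and Igfbp3 and Igfbp2 low in Flk1+ cells, and these were the 3 called of 16 imprinted and insulin-like growth factor genes. All were called under all 17 alternatives. Among 32 matrix, basement membrane and integrin genes, Fn1 and Fbln2 were called higher and Col18a1, a basement membrane collagen, lower (-1.26 ± 0.25, adjusted p = 0.0445). The Col18a1 call ended without Flk1+ array 1 or 3 or any 1 Flk1- array (up to 0.163).

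Several of the largest differences lay outside these pathways. Tpd52, which encodes a protein of vesicle traffic, read -1.36, -1.57, -1.37 and -1.66 in Flk1+ and 1.58, 1.72, 1.52 and 1.41 in Flk1- samples. With -3.05 ± 0.12 (adjusted p = 3.81e-05) it had tight values in each sort, on opposite sides of the reference. Cbx7, a Polycomb protein, read 0.69, 0.53, 0.77 and 0.63 against 2.64, 2.71, 2.64 and 2.80 (difference -2.04 ± 0.10, adjusted p = 0.000123). Its sorts were as cleanly apart. Rpl39l, a paralogue of a ribosomal protein gene whose probe may also detect near-identical copies, differed by -2.87 ± 0.21 (adjusted p = 0.00106). The metallothioneins Mt2 and Mt1, metal-binding proteins of similar sequence whose probes may share signal, differed by -1.99 ± 0.19 and -1.66 ± 0.15 (adjusted p = 0.00258 and 0.00213), Mt1 being named after its value was seen. Ier3, an immediate early gene, differed by -1.74 ± 0.22 (adjusted p = 0.0072) and was the 1 called of 15 stress genes.

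Higher in Flk1+ cells were Hmga2, an architectural chromatin protein of early embryos, at 3.07, 2.75, 3.09 and 3.12 against 1.34, 0.85, 1.29 and 1.55. Both sorts exceeded whole pups, with Flk1+ well above (difference 1.75 ± 0.16, adjusted p = 0.00246). Vstm2b read 1.87, 1.30, 1.90 and 1.52 against 0.14, -0.15, -0.02 and 0.00 (difference 1.65 ± 0.16, adjusted p = 0.00246). Its Flk1- values lay at the array median. Of these genes Tpd52, Cbx7, Rpl39l, Mt2, Mt1, Ier3 and Vstm2b were called under all 17 alternatives, and Hmga2 under all but the scaling to a common spread, which made its difference 0.99.

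Some groups followed the 3 arrays more than the sort. Psma1, a subunit of the proteasome core, named after its values were seen, read 0.16, -3.78, 0.17 and -3.37 in Flk1+ and 0.98, 0.73, 0.62 and -1.40 in Flk1- samples. It was lower on Flk1+ arrays 2 and 4 and Flk1- array 4 by far more than between the sorts, which overlapped (-1.94 ± 1.03, adjusted p = 0.298; -0.61 without the 3 arrays). The median of 17 proteasome core genes, a list chosen after values were seen, was 0.16, -1.12, 0.15 and -1.02 on the Flk1+ and 0.59, 0.50, 0.49 and 0.05 on the Flk1- arrays. Of the 17, 1 was called, Psmb8 (lower). Without the 3 arrays 6 of the 17 were called lower, against 10.5% of all features, and the median difference was -0.26. A sort difference thus remained in part of this list. Cell cycle and replication genes also fell on Flk1+ arrays 2 and 4, with list medians of 0.96, 0.01, 0.98 and -0.07 against 1.15, 0.95, 0.95 and 0.72. None of their 34 members was called with 8 arrays, at a median of -0.24, which was 0.02 without the 3 arrays. Without them 5 were called higher and 2 lower, where 5.93% of all features were called higher and 10.5% lower. The lower Flk1+ mean of the cell cycle genes rested on Flk1+ arrays 2 and 4. Epithelial list medians also fell on these arrays, at -0.07, -0.55, -0.11 and -0.74 in Flk1+ against 0.17 to 0.27 in Flk1- samples. Those of hypoxia and glycolysis did so too, at -0.04, -0.45, -0.08 and -0.35 against 0.26 to 0.34. In both lists all Flk1+ medians stayed below all Flk1- medians.

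**Figure D4:**
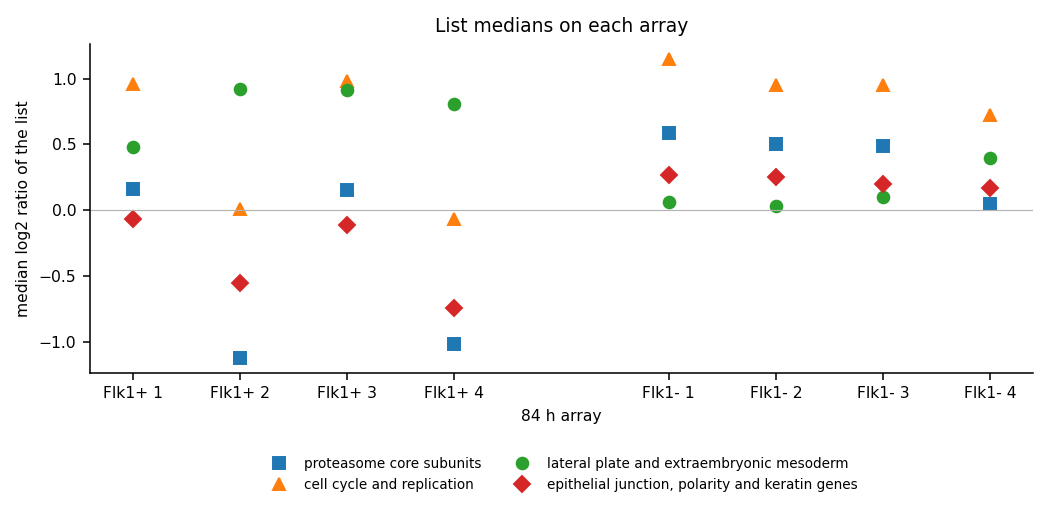
Median log2 ratio of the members of 4 gene lists on each 84 h array, Flk1+ arrays 1 to 4 on the left and Flk1- arrays 1 to 4 on the right. Proteasome, cell cycle and epithelial medians fall on Flk1+ arrays 2 and 4. Epithelial medians are nonetheless at most -0.07 on all Flk1+ and at least 0.17 on all Flk1- arrays. Lateral mesoderm medians are at least 0.48 on all Flk1+ and at most 0.40 on all Flk1- arrays.

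Called genes that shrank most without the 3 arrays were Fbln2 (0.80 left of 1.25), Kif21b, a kinesin (0.82 of 1.08), Bmp4 (0.98 of 1.24) and Hoxb1 (1.64 of 1.87) on the higher side. On the lower side they were Sox2 (-3.01 left of -3.56), Kit (-0.91 of -1.38), Pald1, a phosphatase-domain protein (-0.87 of -1.30), and Spint1 (-0.79 of -1.22). All 8 were called in both fits. Kif21b was lost without Flk1+ array 1 or 2 or any 1 Flk1- array (adjusted p up to 0.172) and Pald1 without Flk1+ array 4 or any 1 Flk1- array (up to 0.0985).

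Some calls named above also ended under another scaling, probe rule or estimate of the spread. Without median centring these were Mmp14, Ackr3, Otx2, Dnmt3b, Epcam, Krt7, Pdgfrb, Fgf7, Col18a1 and Kif21b. With quantile normalization they were Pbx3, Cxcl12, Otx2, Dnmt3b, Cubn, Krt7, Bhlhe40, Tnni3, Fgf7 and Col18a1, and with arrays scaled to a common spread Cxcl12, Hmga2, Cubn, Grhl1, Krt7, Col18a1, Tnni3 and Fgf7, the last pair with a turned sign. Taking the probe of the largest SD in place of the mean of probes ended those of Mmp14, Tgfb2, Otx2, Dnmt3b, Epcam, Krt7, Pdgfrb, Col18a1 and Kif21b. Dnmt3b, Cubn, Spint1 and Fgf7 were lost when the 3 arrays were left out and the spread was shared with the rest of the series, and Cubn was lost also when all 24 arrays shared the spread.

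The same sort at 95 h, on 8 other arrays, called 135 features (0.774%), 54 higher (0.310%) and 81 lower (0.464%). Of the 347 features called at 84 h, 326 had the same sign at 95 h and 0 were called in the opposite direction. How many of all 17440 features had the same sign at both times was not counted. With 0.774% of features called at 95 h, few opposite calls could arise. Calls of the same sign at both times numbered 78, which is 22.5% of the 84 h calls and 57.8% of the 95 h calls. Kdr read 1.88, 1.73, 1.79 and 1.98 in Flk1+ and -1.30, -1, -1.02 and -1 in Flk1- samples at 95 h (difference 2.93, adjusted p = 1.46e-05). Its Flk1+ values were closer together than at 84 h. Sox2 differed by -2.66 (adjusted p = 0.00282), Lefty1 by -2.44 (adjusted p = 0.000573), Tpd52 by -2.34 (adjusted p = 0.000573) and Wnt2 by 1.86 (adjusted p = 0.000969).

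Limma's interaction test over 16 arrays called 0 changes of the sort difference between 84 h and 95 h, where 1265 features (7.25%) had an unadjusted p under 0.05. Prdm6 had one of the larger changes: at 95 h it read 2.82, 2.20, 2.81 and 2.54 in Flk1+ and 1.44, 0.79, 1.48 and 0.81 in Flk1- samples. The Flk1- values were thus above most of those at 84 h, and the difference went from 3.28 to 1.46 (change -1.82, adjusted p = 0.607). With the 3 arrays left out and the spread shared with the rest of the series, this change was called (-1.81, adjusted p = 0.0189), 1 of 31 such calls. Snai1 read 1.66, 1.87, 1.34 and 1.49 against 1.48, 1.04, 0.75 and 0.99 at 95 h, with overlap, and was not called there (difference 0.53, adjusted p = 0.458; change -1.04, adjusted p = 0.607). Wnt5a and Notch1 were also called at 84 h and not at 95 h (0.86, adjusted p = 0.119, and 0.43, adjusted p = 0.712), but neither change was called (-0.76 and -0.78, both adjusted p = 0.607).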

How the data were processed

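RNA of Flk1+ and Flk1- cells was measured on 2-colour Agilent mouse development arrays, sample in Cy5 and whole-pup reference in Cy3, per the labels, with no dye swap. The authors' deposited table gives a log ratio per probe and array, handled as log2; log base, direction, feature extraction and normalization are not given in the sources used here. Another base would multiply every difference by 1 factor. Of 11 newborn pup genes 10 lay below 0 over all arrays (median -1.72), so values were read as Cy5 over Cy3. Deposited arrays average 0, and here each array's median was set to 0. Of 20280 probes 11813 had 1 gene in the platform annotation, 559 several and 7908 none, and symbols came from that annotation (11782 identifiers were found in the RefSeq gene file). Probes of a gene were averaged (2180 genes), leaving 17440 features.

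Tables were read with data.table (version 1.17.8) and fitted with limma 3.58.1 (lmFit, eBayes) in R 4.3.3; plots were drawn with matplotlib 3.10.9 in Python 3.11.15. The 8 arrays of 84 h were fitted alone, without covariates, because they spread more than the others; Benjamini-Hochberg adjustment ran over 17440 features, and calls were made at 0.05 with no fold minimum. On simulated data of this size, 54% of changes of 1 and 91% of changes of 2 (log2), among 200 changed features, were recovered with 6 false calls. The simulated errors were independent between genes and arrays, with the same spread in both sorts. They lacked the split among the Flk1+ arrays, so these rates cannot be carried over to the real arrays. With 4 arrays per sort, their number limits the precision. The 8 d arrays entered only the alternatives that share the spread.

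Alternatives were the shared spread, the 3 arrays left out, array weights, a replicate block, other scalings, other probe rules and each array left out. A gene called under all 17 alternatives was called in each of these except the test by probe, which has other features.

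The named genes were Kdr, the 10 largest differences in each direction by the smaller of the values with and without the 3 arrays (among called genes whose sorts did not overlap), up to 5 called members per list, and up to 4 in each direction that shrank most without the 3 arrays. Others are uncalled list members, or are said to be named after their values were seen. The comparison, lists and rule were chosen with earlier results of these data known. Promoter windows came from RefSeq, build GRCm38.p6.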

Additional observations from a re-analysis of the deposited data

Results flagged for a closer look

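Of single values, 14 stood far from the other 3 of their sort (Dixon's test at the 95% level), out of 190 groups tested over 95 genes; chance flags about 1 in 20 groups.

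Flk1- array 4 gave 7 of them: Notch1 at -0.06 (others -0.86 to -0.79), Sema6a at 0.25 (-0.12 to -0.06), Krt7 at -1.25 (-1.68 to -1.62), Cgn at -0.23 (0.18 to 0.19), Zfp42 at 3.77 (3.38 to 3.43), Hprt at -1.11 (0.49 to 0.79) and Psma1 at -1.40 (0.62 to 0.98). Cubn was low on Flk1- array 1 at -1.28 (-0.92 to -0.85).

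Flk1+ array 4 gave Wnt2 at 1.5 (others 1.03 to 1.08), Ackr3 at 0.50 (-0.59 to -0.48), Adm at -1.20 (-0.57 to -0.52) and Pdgfrb at -1.05 (-1.74 to -1.67). Flk1+ array 2 gave Hmga2 at 2.75 (3.07 to 3.12) and Nefl at -1.71 (-2.01 to -1.97). Hprt and Psma1 were picked after their values were seen. For both, Flk1+ arrays 2 and 4 were low as well, which a test for a single outlying value cannot flag. The cause was not tested.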

How the results depend on the processing

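The 84 h count of 347 became 2352 with the spread shared by all 24 arrays (39.3% higher, against 25.9%), 2867 without the 3 arrays (36.1% higher), 1176 without them and with a shared spread, 2872 with array weights, 120 with a replicate block and 953 with arrays scaled to a common spread (48.1% higher; 228 of the 347 kept, 332 with the same sign). Quantile normalization gave 416 (42.8% higher; 217 kept), values as deposited 263, single probes 394, the probe of largest SD 339. Leaving out 1 array gave 96 to 556 calls. The cause of these shifts was not tested. The replicate block follows a number only: arrays of the same number had deviation correlations of 0.34, -0.127, 0.313 and 0.526, so the numbers were not taken as pairs; 116 of its 120 calls were among the 347, and of 95 genes examined 30 lost their call with it, Kdr, Cdh1, Notch1, Dppa3, Kit, Parp12 and Samd9l among them. The count of changes from 84 h to 95 h, 0, became 1 with the spread of all 24 arrays, 31 without the 3 arrays and with a shared spread and 13 with array weights, and stayed 0 (0 to 0) with 1 array left out. Tnni3 turned to 0.03 and Fgf7 to 0.34 with arrays scaled to a common spread. Over 95 genes, 1323 of the recomputed values kept direction and call, 275 lost the call, 15 gained one and 2 turned. Of the list medians, 442 moved little and 85 moved further. Signal over background is not known here, so faint probes could not be told apart.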

Other observations

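Genes induced by interferon, a list chosen after values were seen, were mostly on the lower side in Flk1+ cells. Of 28 measured of 42 listed, 1 was called higher, 7 lower and 20 were not called, with a median of -0.34 (-0.44 without the 3 arrays). Bst2, the membrane protein tetherin, read -0.44, -1.15, -0.62 and -1.06 in Flk1+ and 1.69, 1.81, 1.52 and 0.85 in Flk1- samples. Its sorts did not overlap (difference -2.28 ± 0.25, limma adjusted p = 0.00416). Psmb8, an immunoproteasome subunit, read -0.48, -0.69, -0.40 and -0.96 against 0.85, 0.50, 0.45 and 0.56 (difference -1.22 ± 0.15, adjusted p = 0.00777). Both were called under all 17 alternatives.

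Parp9 and Parp12, ADP-ribosyltransferase family members, differed by -0.85 ± 0.12 each (adjusted p = 0.0120 and 0.0106), and Samd9l by -0.47 ± 0.09 (adjusted p = 0.0461). Their calls ended without Flk1- array 1, 2 or 3 (Parp9, up to 0.0628), Flk1- array 1 or 2 (Parp12, up to 0.0566) and any 1 array but Flk1+ array 2 (Samd9l, up to 0.182). That of Samd9l also ended without median centring, with quantile normalization, with arrays scaled to a common spread, with the probe of the largest SD, and without the 3 arrays when the spread was shared with the rest of the series. Usp18, the protease that removes ISG15 from proteins, differed in the opposite direction: it read 0.75, 0.98, 0.78 and 1.82 in Flk1+ and -0.78, -0.98, -1.04 and -0.40 in Flk1- samples. All Flk1+ values lay above the Flk1- values (difference 1.88 ± 0.26, adjusted p = 0.0106), and the call ended without Flk1- array 2 or 3 (up to 0.0543).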
